A study of Homo sapiens with 64 samples.

Results

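CDKN1A, CDKN1B, CDKN1C, CDKN2A, CDKN2B, CDKN2C, CDKN2D and CCNG2, 8 genes known for holding cells out of the cell cycle, were followed in spheroids of 6 colorectal cancer cell lines. The first 7 encode the CDK inhibitors and CCNG2 encodes cyclin G2, an unconventional cyclin that is linked to cell cycle arrest and is not itself a CDK inhibitor. The genes were chosen by name, with earlier results of these data known, and each matched 1 row of the 54127 genes listed in the count tables. Cells of HT55 and SW948 (subtype CCS1), RKO and SW48 (CCS2), and DLD1 and HCT15 (CCS3) were stained with CFSE, a protein dye that daughter cells share out, and were grown as non-adherent spheroids in serum-free medium with EGF and bFGF. On day 6 they were sorted into label-retaining cells (LRCs, bright for CFSE) and the remaining cells (non-LRCs), 4 replicates of each per line, giving 48 sorted samples in which both populations carried the dye. A further 16 samples were unsorted DLD1 cells, CFSE-labeled or given DMSO without dye, on day 1 or on a late day that the sample labels give as day 5 and the study's design as day 6, with 4 replicates per group. DLD1 and HCT15 are known to stem from the same tumor, so the 6 lines are not 6 unrelated tumors.

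A cell commits to division when cyclin D with CDK4 or CDK6, and then cyclin E with CDK2, phosphorylate the RB family and release E2F. The INK4 proteins p16, p15, p18 and p19 (CDKN2A, CDKN2B, CDKN2C and CDKN2D) bind CDK4 and CDK6 and keep them from cyclin D, while the CIP/KIP proteins p21, p27 and p57 (CDKN1A, CDKN1B and CDKN1C) bind whole cyclin-CDK complexes, above all those of CDK2. CDKN1A is the classical target of p53, p27 is set largely by degradation through SKP2 rather than by its mRNA, CDKN2B is a TGF-beta target, and CCNG2 is a target of FOXO factors and p53.

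On GRCh37, CDKN1A lies at chr6:36644237-36655114, CDKN1B at chr12:12838432-12875303, CDKN1C at chr11:2904443-2907005, CDKN2A at chr9:21967751-21995300 and CDKN2B at chr9:22002902-22009304. CDKN2C is at chr1:51426417-51440306, CDKN2D at chr19:10677136-10679735 and CCNG2 at chr4:78078360-78354542. CDKN2A counts pool the transcripts of p16 and of ARF, which share exons. CDKN2B-AS1, an antisense RNA that overlaps CDKN2A and CDKN2B, had at most 14 counts in any sample, and GPR19, which overlaps CDKN1B on the opposite strand, had at most 42. The strand setting of the counting is not given in the sources used here.

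Promoters are shown for the 4 members whose LRC means were higher in all 6 lines, CDKN1A, CDKN2B, CCNG2 and CDKN2D, and for CDKN1B, which was not called in any line. The fifth member called across the lines was CDKN1C. The promoters come from RefSeq on GRCh38.p14, run from 250 bases before to 50 bases after the start of transcription, and are written 5′ to 3′ on the gene's strand. Capitals mark the GC box searched on both strands, GGGCGG or its reverse complement CCGCCC, with overlapping matches kept.
CDKN1A, chr6:36678464-36678763, plus strand: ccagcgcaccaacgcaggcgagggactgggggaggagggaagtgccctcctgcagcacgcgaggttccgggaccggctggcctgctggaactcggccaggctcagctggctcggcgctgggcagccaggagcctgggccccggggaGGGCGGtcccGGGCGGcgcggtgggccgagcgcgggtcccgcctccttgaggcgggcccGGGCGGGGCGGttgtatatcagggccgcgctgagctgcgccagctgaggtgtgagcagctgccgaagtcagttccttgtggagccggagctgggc
CDKN2B, chr9:22009256-22009555, minus strand: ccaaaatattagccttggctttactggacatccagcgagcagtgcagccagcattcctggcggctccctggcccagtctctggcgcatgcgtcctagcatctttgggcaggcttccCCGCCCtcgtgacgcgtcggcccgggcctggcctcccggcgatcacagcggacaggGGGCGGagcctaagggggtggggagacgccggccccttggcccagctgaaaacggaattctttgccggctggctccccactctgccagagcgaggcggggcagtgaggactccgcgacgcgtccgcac
CCNG2, chr4:77156957-77157256, plus strand: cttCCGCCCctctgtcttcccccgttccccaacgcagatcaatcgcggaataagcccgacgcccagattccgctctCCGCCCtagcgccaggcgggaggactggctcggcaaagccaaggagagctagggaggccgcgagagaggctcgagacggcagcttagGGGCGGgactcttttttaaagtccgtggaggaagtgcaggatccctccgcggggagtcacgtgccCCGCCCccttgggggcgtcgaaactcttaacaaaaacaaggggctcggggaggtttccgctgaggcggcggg
CDKN2D, chr19:10568930-10569229, minus strand: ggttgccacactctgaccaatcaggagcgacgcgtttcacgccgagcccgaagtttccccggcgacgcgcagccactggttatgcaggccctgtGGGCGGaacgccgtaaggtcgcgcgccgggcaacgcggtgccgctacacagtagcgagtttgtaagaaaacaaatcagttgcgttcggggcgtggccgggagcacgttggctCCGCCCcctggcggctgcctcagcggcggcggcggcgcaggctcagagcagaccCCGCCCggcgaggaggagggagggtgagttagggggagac
CDKN1B, chr12:12717118-12717417, plus strand: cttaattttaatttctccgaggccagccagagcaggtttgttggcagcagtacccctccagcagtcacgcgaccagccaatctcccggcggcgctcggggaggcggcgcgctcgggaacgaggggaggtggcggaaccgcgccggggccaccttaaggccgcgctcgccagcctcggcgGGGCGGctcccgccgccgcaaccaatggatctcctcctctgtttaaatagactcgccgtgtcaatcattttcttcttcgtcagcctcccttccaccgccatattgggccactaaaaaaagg
GC boxes were found 4 times for CDKN1A, 2 times for CDKN2B, 4 times for CCNG2, 3 times for CDKN2D and 1 time for CDKN1B. This is a common motif, held by 45% of the 35116 promoters of this length in the table, so its presence sets none of these genes apart. RefSeq starts were matched for 7 of the 8 genes, and 8 of their 10 starts held it. CDKN2A had 2 starts, with the motif in the downstream window (chr9:21974808-21975107) and not in the upstream one (chr9:21995275-21995574).

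Each sample had from 12237225 to 20913455 reads on genes. EPCAM and CDH1, markers of epithelium, lay at 335 to 1751 and 433 to 1390 CPM (the read count per megaread of library size) in 5 lines, but RKO had only 14.8 to 19.3 CPM of EPCAM and 0.626 to 1.35 of CDH1. KRT20, CDX1 and LGALS4, which mark differentiated colon cells, stayed under 0.8 CPM in both RKO and SW48. CDX1 was also at most 0.469 CPM in DLD1 and 0.068 in HCT15. KRT20 reached 37.1 CPM in DLD1 and 4.09 in HCT15, and LGALS4 9.62 and 5.03. In HT55 and SW948 these genes lay at 47.1 CPM or above. RKO, SW48, DLD1 and HCT15 thus lack part of the colon pattern, to differing degrees. Of the 10 colon markers 1 was called across the lines, VIL1, lower in LRCs (log2 fold change -0.30 ± 0.10), as were 10.7% of all genes. KRT18 and KRT8 gave 0.16 ± 0.07 and 0.15 ± 0.07. Of 10 markers of leukocytes, endothelium, fibroblasts and red cells, 9 were matched and 4 had enough counts to be tested. CD3E was at 0 CPM in all sorted samples, CDH5 at most at 0.072 and DCN at most at 0.221, whereas PTPRC reached 7.47 to 22.1 in SW48. COL1A1 gave 0.30 ± 0.15 and PDGFRB 0.08 ± 0.17, neither called. CD68, a lysosomal protein used as a macrophage marker, was the 1 called, higher in LRCs by 0.77 ± 0.14, as were 12.2% of all genes. It made up nearly all of the summed level of the 9 markers in RKO, which was 992 to 1145 CPM in non-LRCs and 1241 to 1570 in LRCs. In DLD1 the sum was 7.50 to 13.9 CPM in non-LRCs and 11.5 to 23.2 in LRCs. Mitochondrial transcripts made up 13.8% to 14.2% of counts in SW48 LRCs and 9.66% to 11.3% in SW48 non-LRCs, and 7.01% to 10.5% in RKO LRCs against 4.47% to 6.57% in RKO non-LRCs. The part of these measures in the results was not tested. In bulk samples, fewer cells that express a gene and less of its RNA per cell cannot be told apart.

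In non-LRCs, CDKN1A was the most abundant of the 8 genes per length, with 33.8 CPM per kilobase of exon (RPKM) as the mean of the 6 lines. CDKN1B at 7.51 RPKM and CCNG2 at 7.37 came next, followed by CDKN1C at 4.75, CDKN2B at 4.04, CDKN2D at 3.40, CDKN2C at 3.15 and CDKN2A at 1.79. These means hide large differences between lines, as the plot of CPM by line shows. In DLD1, CCNG2 (9.41 RPKM) and CDKN1B (9.06) lay above CDKN1A (7.85), which was highest in the other lines. The order also rests on the exon lengths used, 9255 bases for CDKN1B and 2996 for CDKN1A. By mean CPM, CDKN1B lay above CDKN1A in SW948, HT55 and DLD1 and below it in the other lines. All 8 genes differed between the lines' non-LRCs, but so did 98.3% of the 15779 genes tested, so the order of the lines is of more use than the call.

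**Figure D1:**
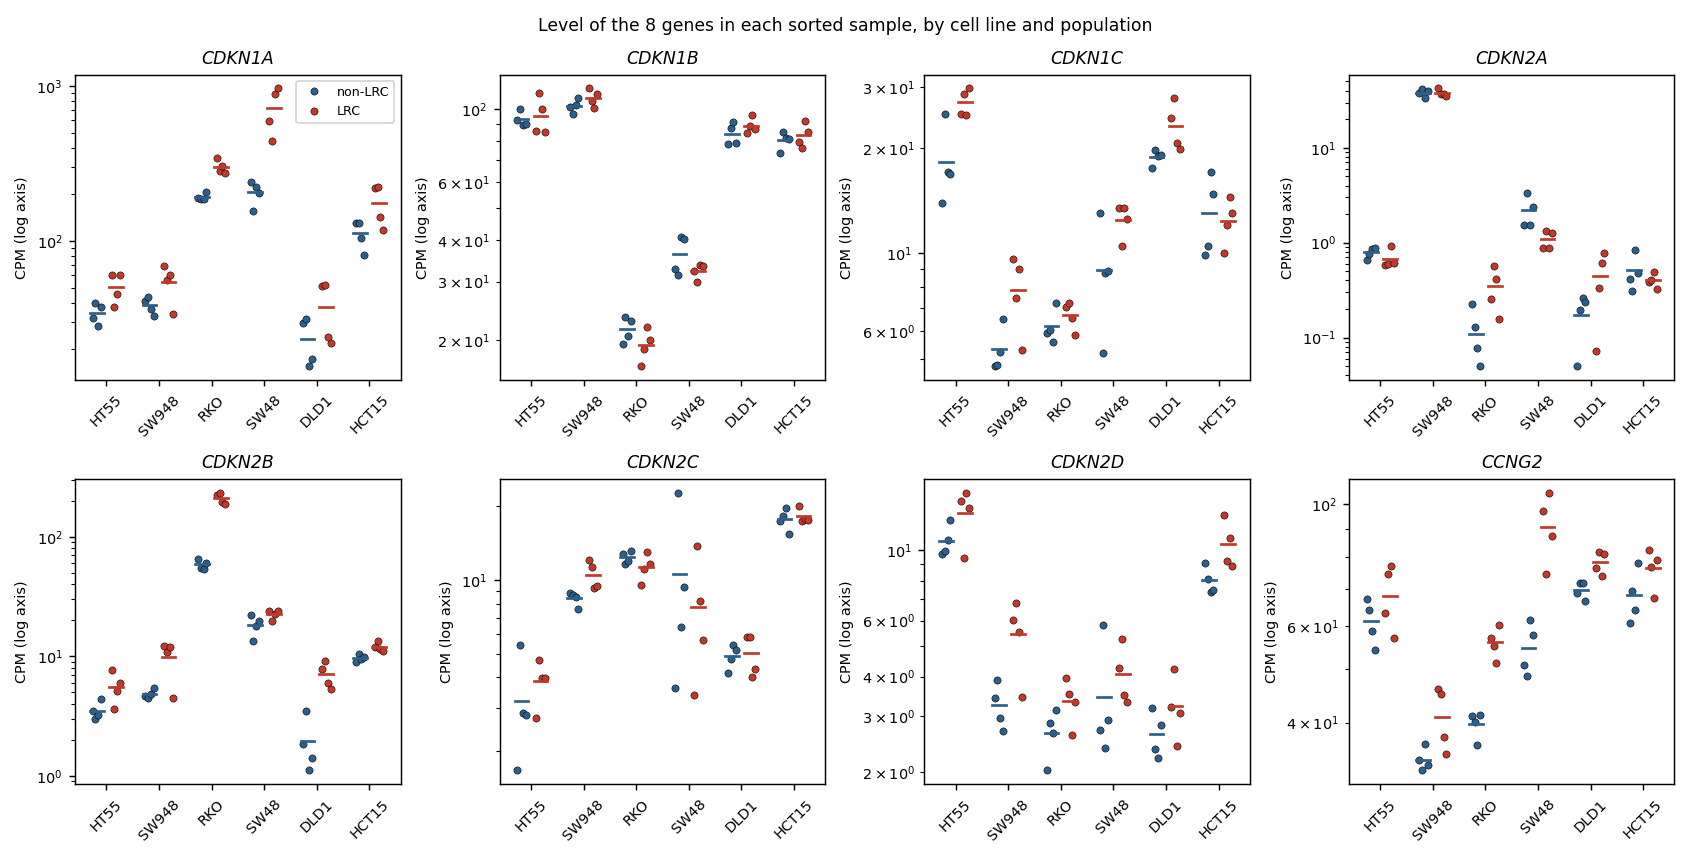
CPM of the 8 genes on log axes in the 48 sorted samples, by line, with non-LRCs in blue, LRCs in red, 1 point per sample and bars at the group means; samples with no count are drawn at 0.05 CPM. SW948 stands alone for CDKN2A, RKO for CDKN2B, and the red points of CDKN1A rise furthest above the blue ones in SW48.

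CDKN2A was the most line-bound of the genes. SW948 non-LRCs held 38.0, 41.3, 33.5 and 39.2 CPM in replicates 1 to 4, and those of SW48, next in order, held 1.54, 3.30, 1.52 and 2.38. HT55 and HCT15 non-LRCs lay below 0.89 CPM and did not differ beyond their spread, and RKO and DLD1 had 0 to 4 counts per sample. The other 5 lines thus had little or no CDKN2A mRNA, and SW948 lay 4.12 ± 0.23 log2 units above SW48 (edgeR's quasi-likelihood test, Benjamini-Hochberg adjusted p = 1.20e-14).

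CDKN2B followed another order. RKO non-LRCs were highest, at 54.1 to 65.6 CPM, then SW48 at 13.5 to 22.1, HCT15 at 8.94 to 10.5, SW948 at 4.51 to 5.46, HT55 at 2.98 to 4.36 and DLD1 at 1.11 to 3.49. Neighbors in this order differed by edgeR's test except SW948 and HT55 (difference 0.45 log2 units, 95% interval 0.01 to 0.89, adjusted p = 0.0598). CDKN1A was high in SW48 and RKO, which did not differ beyond their spread (0.11 log2 units, 95% interval -0.25 to 0.46), lower in HCT15, lower again in SW948 and HT55, and lowest in DLD1. Non-LRC means for CDKN1A ran from 206 CPM in SW48 to 23.5 in DLD1.

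CDKN1B, the gene for p27, split the lines otherwise. SW948, HT55, DLD1 and HCT15 lay between 73.7 and 108 CPM with no neighbor apart from the next, SW48 lay at 31.4 to 40.9 and RKO at 19.4 to 23.4. RKO therefore had the most CDKN2B and the least CDKN1B mRNA of the 6 lines. CCNG2 varied least, from 34.3 CPM as the SW948 mean to 69.8 in DLD1. CDKN1C was highest in DLD1 and HT55 (means of 18.8 and 18.2 CPM), CDKN2D in HT55 (10.7 CPM) and CDKN2C in HCT15 (17.7 CPM), which did not differ from RKO next to it (0.51 log2 units, 95% interval -0.13 to 1.14).

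The first question of the design was whether LRCs differ from the cells that had diluted the dye. Across the 6 lines, 5 of the 8 genes were higher in LRCs and none was called lower. CDKN2B and CDKN1A, encoding p15 and p21, rose most, while CDKN2D (p19), CCNG2 and CDKN1C (p57) rose by smaller amounts. CDKN1B, CDKN2C and CDKN2A were not called. For comparison, 12.2% of the 16603 genes tested were called higher and 10.7% lower. The median of the 8 log2 fold changes was 0.33, against 0.01 over all genes tested.

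CDKN2B rose by 0.99 ± 0.13 on the log2 scale (SE, 24 LRC and 24 non-LRC samples), a 1.98-fold difference, with edgeR's adjusted p = 2.89e-07. CDKN1A rose by 0.82 ± 0.12, or 1.77-fold (edgeR adjusted p = 1.63e-06). Both were higher in LRCs in 6 of 6 lines and in 23 of 24 same-numbered pairs. In RKO and SW948 the numbers were not borne out as pairs, so the pair counts of all genes include arbitrary matches there. CDKN2D rose by 0.39 ± 0.09 (edgeR adjusted p = 0.000806), higher in 6 lines and 21 pairs. CCNG2 rose by 0.34 ± 0.05 (edgeR adjusted p = 3.66e-06), higher in 6 lines and 23 pairs, and CDKN1C by 0.33 ± 0.08 (edgeR adjusted p = 0.00241), higher in 5 lines and 20 pairs.

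Since 4 replicates of a line are not 4 lines, the 6 line means were also compared by flipping their signs in all 64 ways (exact test, two-sided). In this exact test CDKN1A, CDKN2B, CDKN2D and CCNG2 each gave p = 0.03125, the smallest value that 6 lines allow, and CDKN1C gave p = 0.0625. These p-values are unadjusted. The test counts DLD1 and HCT15, which stem from the same tumor, as separate units, so the p-values may be too small.

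CDKN1B differed between the populations by 0.00 log2 units, with a 95% interval of -0.07 to 0.08, with 13 of 24 pairs higher in LRCs. CDKN2C differed by 0.01 (95% interval -0.24 to 0.26), also higher in 13 pairs. Both intervals contain small differences in either direction, and the interval of CDKN1B is much the narrower. CDKN2A differed by -0.11 (95% interval -0.42 to 0.20), and the sign turned to 0.10 without SW48.

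**Figure D2:**
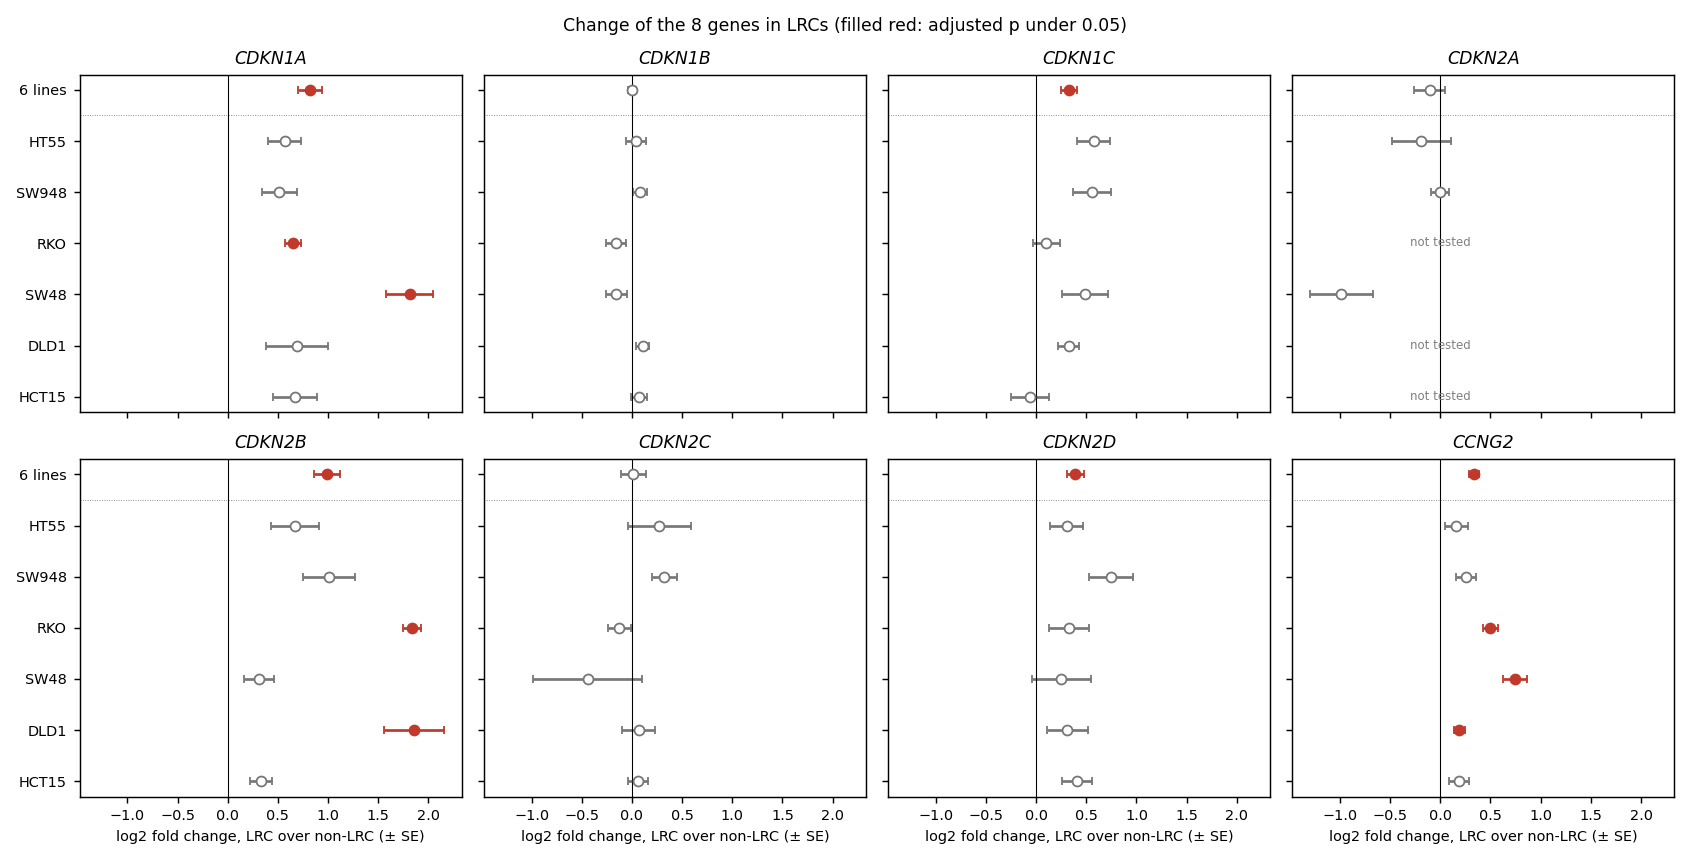
Log2 fold change of LRCs over non-LRCs with its SE for each gene, across the 6 lines (top row of each panel) and in each line alone; filled red points passed an adjusted p of 0.05. CDKN1A, CDKN2B, CDKN2D and CCNG2 lie right of 0 in every line, and CDKN1B stays close to 0.

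CDKN1A, which halts the cycle when p53 is active, moved furthest in SW48. There the LRC samples held 598, 443, 881 and 963 CPM in replicates 1 to 4, and the non-LRC samples 242, 157, 223 and 204. In RKO the LRC samples held 342, 283, 303 and 276 CPM, and the non-LRC samples 189, 187, 187 and 207. In both lines every LRC sample lay above every non-LRC sample, which held for 4.45% of genes in SW48 and 17.3% in RKO.

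The rise was 1.82 ± 0.23 log2 units in SW48 (edgeR adjusted p = 0.00824) and 0.65 ± 0.08 in RKO (edgeR adjusted p = 1.19e-05). SW48's call did not survive leaving out replicate 1, 3 or 4 (adjusted p = 0.0574, 0.214 and 0.164), although the log2 fold change stayed at 1.65 to 1.98. Over all genes the calls in SW48 went from 105 to 6, 0 and 0 in these settings. In RKO, 3 of the 7 genes tested were called higher, against 20.4% of all genes, and in SW48 2 of 8, against 0.72%.

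In the 4 remaining lines the populations overlapped and the unpaired test did not call CDKN1A. HCT15 LRCs held 220, 224, 142 and 118 CPM and HCT15 non-LRCs 132, 131, 104 and 81.9. DLD1 LRCs held 51.5, 52.3, 24.2 and 21.9 CPM and DLD1 non-LRCs 29.8, 31.3, 15.6 and 17.4. In both lines replicates 1 and 2 were higher than replicates 3 and 4 in each population, and within every number the LRC sample was the higher.

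The unpaired edgeR test did not call CDKN1A in HCT15 (0.67 ± 0.22, adjusted p = 0.166) or DLD1 (0.69 ± 0.31, adjusted p = 0.16). Blocked by replicate number, it was called in both (HCT15, 0.65 ± 0.07, adjusted p = 7.71e-06, and DLD1, 0.68 ± 0.07, adjusted p = 8.09e-08). Same-numbered samples correlated in both lines, but of 4 LRC samples only 2 in DLD1 and 3 in HCT15 correlated best with their own number. The pairing, and with it the blocked p-value, is thus less sure in DLD1.

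HT55 and SW948, the CCS1 lines, gave log2 fold changes of 0.57 ± 0.17 and 0.51 ± 0.18 for CDKN1A. HT55 LRCs held 60.03, 37.8, 45.5 and 60.2 CPM against 32.1, 39.7, 28.4 and 37.7 in non-LRCs, and SW948 LRCs 69.3, 56.4, 59.97 and 33.6 against 41.1, 43.9, 36.5 and 32.7. Replicate 2 of HT55 went the other way, and replicate 4 of SW948 barely differed.

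No gene at all passed edgeR's adjusted threshold in HT55 or SW948 (0% of 13391 and 13674 genes called, with 1005 and 2350 at an unadjusted p under 0.05, and 37 and 245 called by DESeq2). Of the 8 members, 3 were at an unadjusted p under 0.05 in HT55 and 6 in SW948, and DESeq2 called 0 and 1. Leaving out replicate 2 in HT55 gave an adjusted p of 0.0039 for CDKN1A and 0.00256 for CDKN1C. Leaving out replicate 4 in SW948 gave 0.00353 for CDKN1A, 0.00709 for CDKN1C, 0.00015 for CDKN2B and 0.0139 for CDKN2D.

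CDKN2B, the INK4 inhibitor induced by TGF-beta, had its largest changes in RKO and DLD1. RKO LRCs held 223, 233, 194 and 187 CPM against 65.6, 54.8, 54.1 and 60.02 in non-LRCs. DLD1 LRCs held 7.84, 9.10, 5.97 and 5.35 CPM against 1.86, 3.49, 1.11 and 1.41. Neither pair of groups overlapped, as for 17.3% and 8.12% of genes with all LRC samples above, although DLD1 rests on only 17 to 138 counts per sample.

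The log2 fold changes were nearly the same, 1.84 ± 0.09 in RKO (edgeR adjusted p = 1.01e-09) and 1.86 ± 0.30 in DLD1 (edgeR adjusted p = 0.00388), from non-LRC means of 58.6 and 1.97 CPM. DLD1 had 2 of 7 genes called higher, CDKN2B and CCNG2, against 6.67% of all genes.

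In SW948, CDKN2B in LRCs was 12.1, 10.8 and 12.1 CPM in replicates 1 to 3 and 4.48 in replicate 4, against 4.51 to 5.46 in non-LRCs. The log2 fold change there was 1.01 ± 0.26 (edgeR adjusted p = 0.141), and 1.32 without replicate 4. HT55 gave 0.67 ± 0.24, HCT15 0.33 ± 0.11 and SW48 0.31 ± 0.14, none called by the unpaired test. HCT15 LRCs, at 11.1 to 13.5 CPM, lay above all its non-LRCs, at 8.94 to 10.5, as did 4.65% of genes there. Within the replicate pairs edgeR called CDKN2B in HCT15 (adjusted p = 0.034) and SW48 (adjusted p = 0.0492).

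CCNG2, the FOXO-responsive cyclin, rose in a way that resembled CDKN1A. SW48 LRCs held 97.0, 74.5, 105 and 87.7 CPM and SW48 non-LRCs 51.01, 48.7, 61.6 and 57.8. RKO LRCs held 57.1, 55.2, 51.5 and 60.2 CPM and RKO non-LRCs 41.2, 40.1, 36.4 and 41.3. The groups did not overlap in either line, as for 4.45% of genes in SW48 and 17.3% in RKO with all LRC samples above.

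CCNG2 rose by 0.74 ± 0.12 log2 units in SW48 (edgeR adjusted p = 0.021) and 0.50 ± 0.08 in RKO (edgeR adjusted p = 0.000119). The SW48 call was lost without replicate 1, 3 or 4 (adjusted p of 0.206 to 0.258), where 6, 0 and 0 genes were called at all. DLD1 LRCs, at 74.1 to 81.9 CPM, lay just above DLD1 non-LRCs at 66.5 to 71.9, as did 8.12% of genes there. This rise of 0.19 ± 0.05 (edgeR adjusted p = 0.033) lost its call without any 1 of the 4 replicates (adjusted p of 0.0691 to 0.165). HCT15 had 0 of its 7 tested members called higher, against 0.728% of genes, with 3 at an unadjusted p under 0.05 and 0 called by DESeq2. HT55, HCT15 and SW948 gave CCNG2 changes of 0.16 ± 0.11, 0.19 ± 0.10 and 0.26 ± 0.10.

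CDKN2D and CDKN1C were low-count genes with small, widespread differences. CDKN2D, at 2.03 to 15.1 CPM in sorted samples, gave positive log2 fold changes in all 6 lines, from 0.25 ± 0.30 in SW48 to 0.75 ± 0.22 in SW948, and no line was called by the unpaired test. Its counts per sample ran from 27 to 267. In HCT15 the blocked edgeR test called it (0.40 ± 0.12, adjusted p = 0.0202).

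CDKN1C, an imprinted gene whose product p57 restrains growth in development, gave 0.57 ± 0.16 in HT55, 0.56 ± 0.19 in SW948 and 0.49 ± 0.23 in SW48. DLD1 LRCs held 24.4, 27.9, 20.6 and 19.9 CPM, all above the non-LRCs at 17.5, 19.7, 19.0 and 19.2, as for 8.12% of genes. RKO and HCT15 gave 0.10 ± 0.14 and -0.06 ± 0.19, so CDKN1C was the called gene without a positive change in every line. Blocked by replicate, edgeR called it in DLD1 (adjusted p = 0.00366) and SW48 (adjusted p = 0.0491).

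CDKN1B stayed level in each line. Its log2 fold changes were -0.16 ± 0.10 in RKO, -0.16 ± 0.11 in SW48 and between 0.04 and 0.11 in the 4 other lines, and no line was called with or without the block. All 4 SW48 pairs were lower in LRCs, with 29.9 to 33.6 CPM against 31.4 to 40.9, and all 4 DLD1 pairs were higher, with 84.4 to 95.6 against 78.0 to 91.2. In each case the ranges overlapped.

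CDKN2C, whose product p18 belongs to the INK4 family, was called in no line. Its changes lay between -0.12 and 0.07 in RKO, DLD1 and HCT15, at 0.27 ± 0.32 in HT55 and at -0.44 ± 0.54 in SW48. SW48 non-LRCs held 3.63, 22.7, 6.40 and 9.37 CPM and SW48 LRCs 3.38, 13.7, 8.24 and 5.70, with replicate 2 highest in both populations. SW948 was the line with separate groups, at 9.24 to 12.1 CPM in LRCs and 7.58 to 8.89 in non-LRCs, as for 2.94% of genes there, and its change of 0.32 ± 0.13 was not called (edgeR adjusted p = 0.227).

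CDKN2A was tested within 3 lines, since RKO, DLD1 and HCT15 fell below 10 counts in too many samples. SW48 LRCs held 0.879, 1.33, 0.877 and 1.25 CPM, all below the non-LRCs at 1.54, 3.30, 1.52 and 2.38, as for 3.86% of genes. The change was -0.99 ± 0.31 (edgeR adjusted p = 0.214, and 0.0286 with the replicate block) on 10 to 49 counts per sample. In SW948, where CDKN2A was abundant, it differed by -0.01 ± 0.09. RKO LRCs had 3, 10, 5 and 3 counts and RKO non-LRCs 3, 2, 1 and 0, too few for a test.

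The size of the LRC change differed between lines for 4 of the 8 genes by edgeR's test of the line-by-population terms, which called 14.3% of all genes. Adjusted p-values were 2.97e-05 for CDKN2B, 0.00745 for CCNG2, 0.0167 for CDKN2A and 0.0298 for CDKN1A. CDKN2D (0.776), CDKN2C (0.702), CDKN1B (0.36) and CDKN1C (0.262) were not called, which does not show that their changes were equal. With the replicate block the same 4 were called (adjusted p from 5.95e-08 for CDKN2B to 0.000442 for CCNG2), and the count over all genes went from 2380 to 5584. Without RKO none of the 4 was called, at adjusted p of 0.0536 for CDKN2B to 0.14 for CDKN2A, and without SW48 only CDKN2B was. Over all genes the calls went from 2380 to 166 without RKO. In single lines the CDKN2B changes other than RKO's ran from 0.31 in SW48 to 1.86 in DLD1. The call was also lost for CDKN1A without replicate number 1, 3 or 4 (adjusted p of 0.0844 to 0.229), for CDKN2A without 2, 3 or 4 (0.0974 to 0.148) and for CCNG2 without 1 or 3 (0.128 and 0.0567). In the 4 lines whose numbers pair the samples, the block took the members called from 2 to 5 in SW48, from 2 to 4 in DLD1 and from 0 to 3 in HCT15, and left 0 in HT55. Calls over all genes rose with them, from 105 to 1279 in SW48, from 1978 to 4591 in DLD1 and from 137 to 2987 in HCT15, and stayed at 0 in HT55.

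Over the 48 sorted samples, with each gene centered on the mean of its line, CDKN1A and CCNG2 had the highest correlation among the 8 genes (Pearson's r = 0.694), then CDKN1A and CDKN2B (r = 0.625). These r values are descriptions, since the samples share lines, sort and depth. CDKN1B had its most negative r with CDKN2D (-0.35), and CDKN2C its highest with CDKN2D (0.357).

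Of 11488 genes with a symbol and at least 1 log2 CPM on average, those most like CDKN1A were IER5 (r = 0.855), MPZL3 (0.852) and TNFRSF10D (0.827). CDKN2B was most like TSPYL2 (0.851), IDS (0.844) and NEU1 (0.828), and CCNG2 most like FBXO32 (0.840), TNFSF15 (0.816) and ACER2 (0.809). CDKN1C was most like HDAC5 (0.764), C6orf15 (0.761) and RAB11FIP5 (0.756), and CDKN2D most like HMOX1 (0.755), SLU7 (0.737) and ADM (0.724). CDKN2C stood with PIMREG (0.826), UBE2C (0.776) and KIF20A (0.776), of which UBE2C and KIF20A encode proteins of mitosis. For CDKN1B the highest were LSM14A (0.612), SUMO2 (0.595) and BTF3L4 (0.580), and for CDKN2A KREMEN1 (0.638), MISP3 (0.596) and ST14 (0.575).

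Genes that act around the inhibitors were counted from lists. Of 12 genes of the p53 list beside CDKN1A, all 12 were called higher in RKO, against 20.4% of all genes, with a median log2 fold change of 1.08. In SW48 5 were, against 0.72% of all genes, with a median of 0.74. DLD1 had 1 called, GDF15, against 6.67% of all genes, and HT55, SW948 and HCT15 had 0, with medians between -0.09 and 0.02. Across the 6 lines 9 of 12 were called higher, against 12.2% of all genes (median 0.34), led by ZMAT3 (0.46 ± 0.10), GDF15 (0.93 ± 0.21) and MDM2 (0.33 ± 0.08), the last encoding the ligase that degrades p53. In RKO GDF15 rose by 4.16 ± 0.27 and TP53INP1 by 2.22 ± 0.10, and in SW48 MDM2 rose by 0.84 ± 0.08. CDKN1A itself was called by the unpaired test in RKO and SW48.

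Among FOXO factors and targets beside CDKN1B and CCNG2, 6 of 9 tested were called higher across the lines, against 12.2% of all genes, with a median of 0.22, and none lower. BCL6 rose by 0.41 ± 0.05, IRS2 by 0.34 ± 0.07 and INSR by 0.20 ± 0.04. The list had 6 called higher in RKO, against 20.4% of all genes, 4 in DLD1, against 6.67%, 1 in HCT15, against 0.728%, and 0 in HT55, SW948 and SW48. CCNG2 itself rose in RKO, SW48 and DLD1, while CDKN1B was called in no line.

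SKP2, which marks p27 for degradation, fell by 0.34 ± 0.06 across the lines (edgeR adjusted p = 5.98e-05), and in DLD1 it fell by 0.64 ± 0.08. UBAC1 and RNF123, the KPC complex that degrades p27 in the cytoplasm, fell by 0.12 ± 0.04 and 0.11 ± 0.04. Of the 10 genes for p27 turnover, 3 were called lower and 1 higher across the lines, against 10.7% and 12.2% of all genes, and in RKO 7 were called lower and 1 higher, against 21% and 20.4%. CDKN1B mRNA was called in no line, and p27 protein was not measured.

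**Figure D3:**
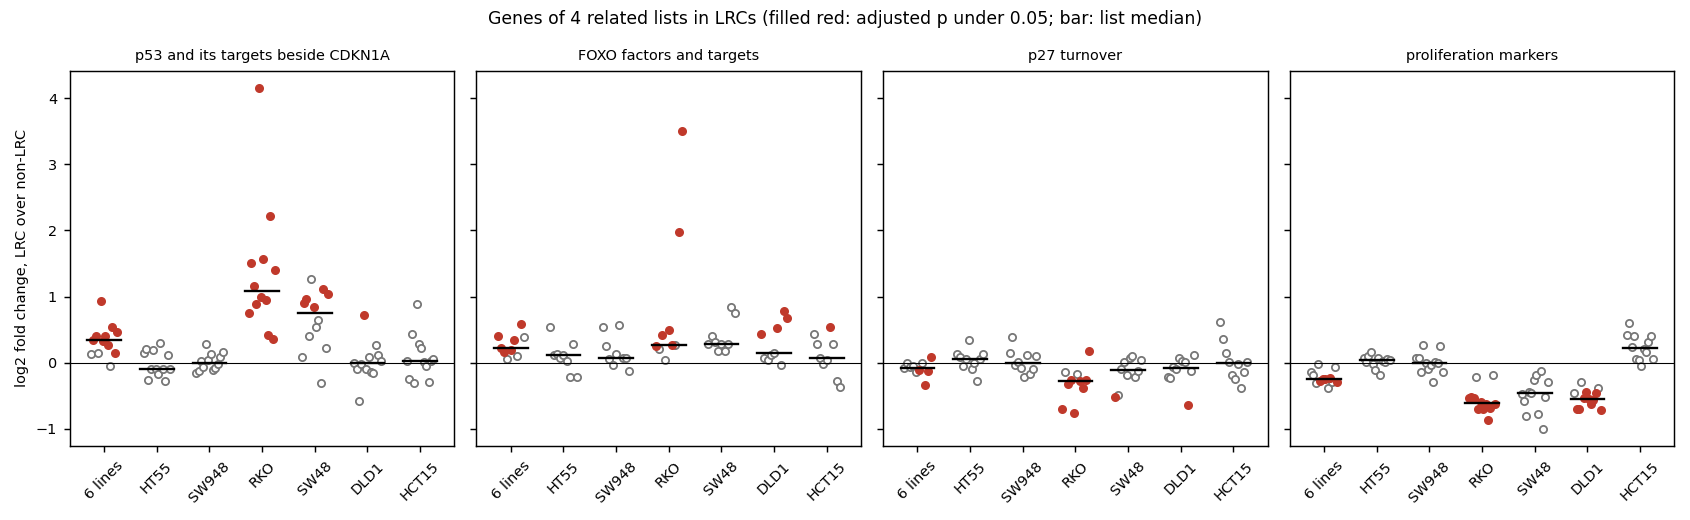
Log2 fold change of LRCs over non-LRCs for each gene of 4 lists, across the 6 lines and in each line; filled red points passed an adjusted p of 0.05 and bars are list medians. The p53 list stands high in RKO and SW48 alone, while the median of the proliferation markers lies below 0 in RKO, SW48 and DLD1 and above 0 in HCT15.

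The INK4 proteins act on the cyclin D kinases. Among 8 genes of D cyclins, CDK4, CDK6 and the RB family, 1 was called across the lines, CDK4, which fell by 0.14 ± 0.04. Over all genes 10.7% were called lower, so this count is near that share. CCND2, next by p, gave 0.35 ± 0.15 and RBL1 -0.14 ± 0.08, neither called. RKO had 3 of the 8 called higher and 2 lower, against 20.4% and 21% of all genes, and DLD1 3 lower, against 7.89%. Among cyclins E and A with CDK2 and its activators, CDC25A fell by 0.26 ± 0.07 and was the only 1 of 8 called, again near the 10.7% of all genes. MNAT1 gave -0.12 ± 0.05 and CCNE2 -0.25 ± 0.12. RKO had 6 of these 8 called lower (all genes, 21%) and DLD1 had 3 (all genes, 7.89%).

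In the DREAM and MuvB complex, which silences cell cycle genes, 4 of 9 genes were called lower across the lines and 2 higher, against 10.7% and 12.2% of all genes. TFDP1 fell by 0.19 ± 0.03, E2F4 by 0.17 ± 0.04 and RBBP4 by 0.15 ± 0.03. Of 8 polycomb and ID genes that repress the INK4 locus, CBX8 (-0.12 ± 0.04) and EZH2 (-0.17 ± 0.07) were called lower, against 10.7% of all genes, and ID1 was not (-0.23 ± 0.09). Proliferation markers had 5 of 12 called lower across the lines, against 10.7% of all genes, among them MCM3 (-0.24 ± 0.05), MCM2 (-0.28 ± 0.07) and MCM6 (-0.25 ± 0.06). In RKO 10 of the 12 were called lower, against 21% of all genes, and in DLD1 9, against 7.89%. Their medians were -0.61 in RKO, -0.55 in DLD1 and -0.46 in SW48, but 0.03 in HT55, -0.01 in SW948 and 0.22 in HCT15.

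The control experiment asked what the dye and time in culture do to unsorted DLD1 cells. CDKN2C was the gene that changed most clearly. On day 1 it held 7.67, 6.57, 6.61 and 8.08 CPM in CFSE-labeled cells and 18.4, 19.8, 16.5 and 21.2 in unlabeled cells. On the late day it held 21.2, 21.4, 21.9 and 25.003 CPM with the dye and 20.2, 25.8, 24.6 and 21.5 without it. The 4 labeled samples of day 1 stood far below the other 12, which spanned 16.5 to 25.8.

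CDKN2C was lower with the dye on day 1 by -1.35 ± 0.13 log2 units (edgeR adjusted p = 3.11e-05), rose with time in labeled cells by 1.55 ± 0.13 (edgeR adjusted p = 3.13e-06), and gave an interaction of dye and day of 1.31 ± 0.17 (edgeR adjusted p = 0.00863). On the late day the dye made a difference of -0.04 (95% interval -0.29 to 0.21). The interaction was called for 0.999% of genes, and its call was lost without replicate 1, 2 or 3 of each group (adjusted p of 0.0825 to 0.198), with the estimate at 1.29 to 1.39. In each of these settings 0 genes kept or gained a call, against 1068 called without replicate 4.

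**Figure D4:**
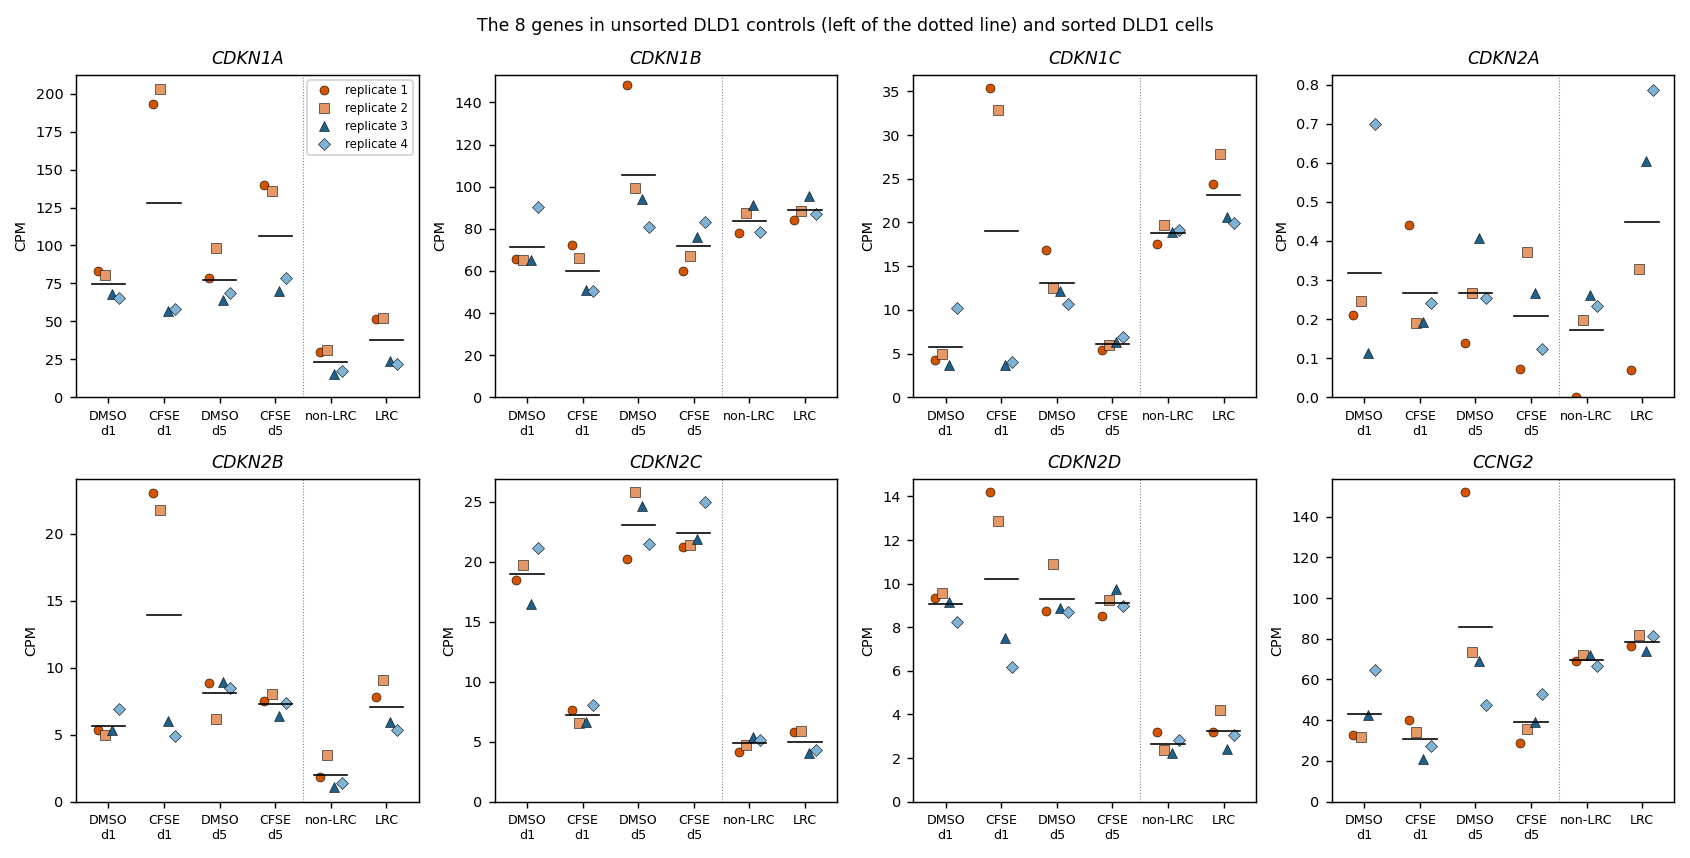
CPM of the 8 genes in DLD1 cells, 1 point per sample with a symbol for each replicate number and a bar at the group mean, for unsorted controls (left of the dotted line) and sorted cells. CDKN2C is low in all 4 labeled samples of day 1, while CDKN1A, CDKN1C, CDKN2B and CDKN2D are raised there in replicates 1 and 2 and not in replicates 3 and 4.

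The 4 labeled samples of day 1 were not alike for other genes. CDKN1C was 35.3 and 32.9 CPM in replicates 1 and 2 and 3.72 and 4.06 in replicates 3 and 4, against 3.73 to 10.2 in unlabeled cells of day 1. CDKN2B was 23.0 and 21.8 CPM in replicates 1 and 2 and 6.03 and 4.89 in replicates 3 and 4, against 4.94 to 6.89 in unlabeled cells. CDKN1A was 193, 203, 57.2 and 58.3 CPM against 65.3 to 83.4, and CDKN2D 14.2, 12.9, 7.51 and 6.19 against 8.23 to 9.58.

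Replicates 1 and 2 of this group stood apart from 3 and 4 over all genes, with a root mean square log2 difference of 0.575 to 0.587 across and 0.226 and 0.166 within. The labels name no batch. Reads on no gene made up 12.1% to 14.8% of these 4 libraries and 8.96% to 13.6% of the unlabeled ones of day 1. CD68 moved with it, at 24.02 and 23.1 CPM in replicates 1 and 2 against 10.6 and 11.6 in replicates 3 and 4. Its part in the differences was not tested. Unlabeled cells were uneven too. On day 1 their replicates 3 and 4 differed by 0.556, with 0.163 between 1 and 2 and 0.278 to 0.642 across. On the late day the unlabeled values were 0.358 and 0.253 within and 0.342 to 0.585 across. Replicate 4 of unlabeled day 1 held that group's highest level of each member except CDKN1A and CDKN2D, where it held the lowest.

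In the test of all 4 replicates CDKN1C rose with the dye on day 1 by 1.76 ± 0.57 (edgeR adjusted p = 0.035) and CDKN2B by 1.35 ± 0.39 (edgeR adjusted p = 0.0205). Both went down with time in labeled cells, CDKN1C by -1.71 ± 0.57 (edgeR adjusted p = 0.0244) and CDKN2B by -1.02 ± 0.38 (edgeR adjusted p = 0.0433). The day effects lost their calls with the replicate block (adjusted p of 0.0657 for CDKN1C and 0.0776 for CDKN2B). The numbers paired these 2 labeled groups, but the block was fitted over all 4 control groups. It is thus not a paired test of the 2 alone. All 4 calls were lost without replicate number 1 or 2 (adjusted p of 0.174 to 0.285). With day 1 represented by replicates 3 and 4 alone, an alternative chosen after seeing the data, the dye differences became -0.54 for CDKN1C and -0.02 for CDKN2B, and neither was called (edgeR adjusted p = 0.442 and 0.973). CDKN2C kept its call there, at -1.34 ± 0.15 (edgeR adjusted p = 0.000653). Over all genes the count of dye calls on day 1 went from 3162, or 21.8% of 14518, to 196 without replicates 1 and 2.

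The same numbers also parted in the late labeled cells and in the sorted cells for CDKN1A. Late labeled cells held 140, 136, 70.3 and 78.7 CPM and late unlabeled cells 78.7, 98.4, 64.1 and 68.5. CDKN1A was not called for dye or day in any of the 5 control comparisons, with a dye difference of 0.83 ± 0.36 on day 1 (edgeR adjusted p = 0.106) and 0.46 ± 0.36 on the late day (edgeR adjusted p = 0.462).

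CDKN1B and CCNG2 were called higher with time in culture without the dye, and both calls were lost under some of the alternatives. CDKN1B held 65.5, 65.0, 65.2 and 90.2 CPM on day 1 and 148, 99.5, 93.9 and 80.7 on the late day, a rise of 0.52 ± 0.18 (edgeR adjusted p = 0.0437). CCNG2 held 32.5, 31.9, 42.4 and 64.7 CPM on day 1 and 152, 73.6, 69.2 and 47.6 on the late day, a rise of 0.95 ± 0.31 (edgeR adjusted p = 0.0356). For both genes replicate 1 was far the highest late sample and replicate 4 the lowest, and the ranges overlapped.

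Without replicate 1 of each group the day effects were 0.25 for CDKN1B (edgeR adjusted p = 0.375) and 0.39 for CCNG2 (edgeR adjusted p = 0.391), and both calls were also lost without replicate 2 or 3. In each of these settings 0 genes were called at all, so the losses are not particular to the 2 genes. Without replicate 4, 6378 genes were called and both genes kept their calls. With library sizes not scaled by TMM the rises were 0.38 (edgeR adjusted p = 0.0986) and 0.80 (edgeR adjusted p = 0.0588). Leaving TMM out moved the median log2 change of all genes from 0.04 to -0.09, and the calls over all genes from 1793 higher and 1902 lower to 714 and 2398. In labeled cells it moved the calls with time from 2935 higher and 2771 lower to 1967 and 3484, and the median from 0.02 to -0.09. In the control fit, 2 of 7 genes were called higher with time in unlabeled cells, against 12.4% of all genes. With the dye, 1 of 7 rose and 2 fell with time, against 20.2% and 19.1%, and on day 1 2 of 7 were called higher and 1 lower with dye, against 9.73% and 12%. On the late day CCNG2 was the 1 member called, lower with the dye by -1.12 ± 0.31 (edgeR adjusted p = 0.0471, against 2.03% of genes called lower, and 0.137 to 0.368 without replicate number 1, 2 or 3). Of all genes, 0 were called for the late dye without number 1, 2 or 3, and 1604 without number 4. CDKN2A had 1 to 13 counts in each control sample and was not tested.

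Sorted DLD1 cells and late unsorted labeled cells both carried the dye, and their levels are set side by side without a test, since sorting differs between them. CDKN2C had group means of 4.88 CPM in non-LRCs and 5.01 in LRCs, where late unsorted labeled cells had 22.4 CPM. CDKN1A had 23.5 and 37.5 CPM in the sorted populations and 106 in late labeled cells, and CDKN2D 2.65 and 3.23 against 9.12. CDKN1C went the other way, with 18.8 and 23.2 CPM in sorted cells and 6.15 in late labeled cells. For comparison, HCT15 non-LRCs had means of 17.7 CPM for CDKN2C, 112 for CDKN1A, 8.02 for CDKN2D and 13.1 for CDKN1C.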

How the data were processed

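RNA sequencing of 64 samples was analyzed: 48 sorted samples (6 lines, LRCs and non-LRCs, 4 replicates) and 16 unsorted DLD1 controls. Raw gene counts were deposited, made from 50-bp single-end reads that the authors aligned to hg19 (GRCh37). The submitters' processing notes name TopHat, HTSeq and DESeq without versions. The annotation and the strand setting are not given in the sources used here. Reads on genes ranged from 12237225 to 20913455 per sample, so genes with few counts carry a large counting error. No pair of replicates agreed within sampling noise (lowest mean chi-square 2.19 per gene over 96 pairs). Reads on no gene, 5.19% to 14.8% of a library, were left out. The study describes biological quadruplicates and the labels name no separate cultures, so p-values measure the spread between these samples, which may be technical.

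Symbols, positions and exon lengths came from GENCODE release 44 lifted to GRCh37, which matched 87.0% of genes. Genes with at least 10 counts in 4 samples were tested with edgeR 4.0.16 (TMM, quasi-likelihood test, two-sided, Benjamini-Hochberg adjustment over all genes tested, threshold 0.05) in R 4.3.3. The 6-line fit had cell line as covariate, single lines were fitted separately, and the controls were fitted with group means of dye and day. SEs are the log2 fold change divided by the square root of F. CPM used TMM library sizes over all 64 samples, RPKM divided them by exon length, and log2 CPM used a prior count of 2. Plots were drawn and tables made in Python 3.11.15.

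Line means were compared by an exact two-sided sign-flip test. The members and the lists were chosen with earlier results of these data known. All 8 members are named. Of each other list the 3 genes with the smallest p in the 6-line fit are named with counts for the list, and TP53INP1 and the single colon and other-cell markers named beyond these were chosen after their values were seen. The genes most like a member had the highest Pearson's r of line-centered log2 CPM. LIN37, TXNIP and PECAM1 were not matched by identifier and not analyzed here. The alternatives were DESeq2 1.42.0, no filter, library size without TMM, the replicate number as a block, group means, all 48 samples in 1 fit, and leaving out each replicate number or line. The fits were tested on simulated data, with 200 genes changed by 1 log2 unit. Of these, 99.5% were recovered in the 6-line fit and in RKO, 91.5% in SW48 and 93.5% in HT55. For the dye on day 1, simulated without the late samples, 63% were. False calls made up 7.44% of the calls in the 6-line fit, above the 5% aimed at, and 3.82% to 5.18% in the others.

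Whether replicate numbers pair the samples was judged from the correlation of deviations from the group mean of LRC and non-LRC samples with the same number. It was over 0.1 for every pair in HT55 (lowest 0.22), SW48 (0.185), DLD1 (0.254) and HCT15 (0.333), and not in SW948 (-0.014) or RKO (-0.091). Of the control groups, labeled day 1 and late samples paired (lowest 0.182), and the others did not. This rule does not ask that a sample correlate best with its own number. Of 4 samples, 3 did so in HT55, SW48 and HCT15, and 2 in DLD1 and in the labeled controls.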

Additional observations from a re-analysis of the deposited data

Results flagged for a closer look

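Among 4 samples of a group, 1 sample stood far from the others in 6 of 117 gene and group sets tested by Dixon's test of the gap over the range. Chance flags about 1 in 20 sets, close to this number. CDKN1A in RKO non-LRCs was highest in replicate 4, at 206.551 CPM. CDKN1B in unlabeled DLD1 cells of day 1 was highest in replicate 4, at 90.2361 CPM. CDKN2B in SW948 LRCs was lowest in replicate 4, at 4.48123 CPM, where CDKN1A, CDKN1C and CDKN2D were lowest too. CDKN2C in HCT15 LRCs was highest in replicate 1, at 20.0294 CPM. CDKN2D was highest in replicate 2 both in late unlabeled DLD1 cells, at 10.8826 CPM, and in SW48 non-LRCs, at 5.7881 CPM.

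The LRC effect differed between the 6 lines by edgeR's test of the interaction terms for CDKN2B (adjusted p = 2.97206e-05), CCNG2 (adjusted p = 0.00745446), CDKN2A (adjusted p = 0.016723) and CDKN1A (adjusted p = 0.0298334). The effect of the dye on CDKN2C differed between the days in DLD1 by the same kind of test (adjusted p = 0.00863246).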

How the results depend on the processing

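CDKN1A, CDKN1C, CDKN2B, CDKN2D and CCNG2 kept their direction and their call across the 6 lines in all 15 alternatives, with adjusted p at most 0.0335. Over all results, 53 member calls were lost and 35 gained, 48 of these 88 by leaving out 1 replicate number. A further 44 member values turned sign. Among them were CDKN1C and CDKN2B, for the dye on day 1 and for day in labeled cells. Both were called in the main fits and not with labeled day 1 from replicates 3 and 4 alone, and these losses are not among the 53. Members near 10 counts are limited by depth. The cause of the changes was not tested. The alternative without replicates 1 and 2 of labeled day 1 was chosen after seeing the data.

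Across the 6 lines, genes called were 2378 without RKO and 2243 to 2945 without 1 replicate number. CDKN1B turned to -0.0037 with no filter, -0.0068 without TMM, -0.0042 with group means, and -0.0028, -0.016, -0.021 and -0.0053 without HT55, SW948, DLD1 and HCT15 (-0.013 to 0.014 without 1 replicate number). CDKN2A turned to 0.25 with group means and 0.10 without SW48, and CDKN2C to -0.020 without HT55 and -0.054 without SW948 (-0.032 to 0.078 without 1 replicate number). For the difference between lines, genes called were 5584 with the replicate block, 166 without RKO and 522 to 2850 without 1 number, and members called 0 without RKO, 1 without SW48 and 1 to 3 without 1 number.

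With all 48 samples in 1 fit, genes called were 106 in HT55, 389 in SW948, 486 in SW48, 646 in DLD1 and 697 in HCT15, with 1 member called in SW948 and 1 in DLD1. With no filter they were 102, 973, 285 and 347 in HT55, SW948, SW48 and HCT15, with 1 member called in HT55, 4 in SW948 and 1 in HCT15. By DESeq2 they were 37, 245, 360 and 528, with 1 member called in SW948. With the replicate block they were 501 in SW948, 1279 in SW48, 4591 in DLD1 and 2987 in HCT15, with 3, 5, 4 and 3 members called. Replicate numbers were not borne out as pairs in SW948, where the block gave adjusted p of 0.011 for CDKN1A, 0.00656 for CDKN2B and 0.0222 for CDKN2D. Of 4 samples, 1 correlated best with its own number there. Nor did the numbers pair labeled with unlabeled cells of day 1, or unlabeled cells of both days, where the block ended the calls of CDKN1C for the dye (adjusted p = 0.0804) and of CDKN1B for day (adjusted p = 0.0526).

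Without 1 replicate number, genes called were 0 to 808 in HT55, 0 to 940 in SW948, 3387 to 4721 in RKO, 0 to 497 in SW48, 581 to 1515 in DLD1 and 0 to 27 in HCT15. Members called were 0 to 2 in HT55, 0 to 4 in SW948, 0 to 2 in SW48 and always 1 in DLD1. Member values crossed 0 for CDKN2C in DLD1 (-0.079 to 0.21) and HCT15 (-0.0037 to 0.13), CDKN1C in HCT15 (-0.14 to 0.014), CDKN1B in HT55 (-0.0080 to 0.082) and CDKN2A in SW948 (-0.062 to 0.049, and 0.0026 without TMM).

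For day in unlabeled DLD1 cells, members called were 0 without TMM, 1 with the block and 0 to 3 without 1 number (0 to 6378 genes). CDKN1A turned to -0.0032 with no filter, -0.12 without TMM and -0.024 by DESeq2 (-0.11 to 0.038 without 1 number), and CDKN2D ran from -0.095 to 0.0077. For day in labeled cells, 1 member was called with the block and 1 to 3 without 1 number (2858 to 5692 genes). For the dye on day 1, 338 to 3384 genes and 1 to 3 members were called without 1 number. For the late dye effect, genes called were 1511 with the block, 1521 by DESeq2 and 0 to 1604 without 1 number, and members 2 by DESeq2 and 0 to 2 without 1 number, with CDKN2C from -0.12 to 0.010 and CDKN2D from -0.079 to 0.023. For the interaction, genes called were 454 with no filter, 85 without TMM, 615 by DESeq2 and 0 to 1068 without 1 number, and members 2 with no filter, 2 by DESeq2 and 0 to 3 without 1 number, with CCNG2 from -1.38 to 0.10 and CDKN1B from -0.73 to 0.047.

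With labeled day 1 from replicates 3 and 4 alone, genes called were 2819 for day, 196 for dye and 13 for the interaction, with 1 member called for day and 1 for dye. The day values turned to 0.75 for CDKN1A, 0.54 for CDKN1C, 0.30 for CDKN2B and 0.30 for CDKN2D, the dye values to -0.34, -0.54, -0.02 and -0.39, and the interaction to 0.78 for CDKN1A and 0.34 for CDKN2D.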
